A study of Mus musculus with 47 samples.

Results

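The collagen genes were examined in inguinal white fat (iWAT) from male and female wild-type (WT) mice and from mice without Bcmo1, the enzyme that cleaves β-carotene (BC) into vitamin A aldehyde. The mice were fed a control diet or one enriched in BC. Members were all genes whose symbol on the array is Col, a number, the letter a and a number. This gave 40 collagen genes out of 27745 genes with a symbol, measured by 81 probes. They comprised 11 fibrillar, 6 basement membrane and 23 other collagens. Each mouse was hybridized on 1 array, with its RNA labeled with Cy5 and a pool of all samples labeled with Cy3, so that every value below is the log2 ratio of 1 mouse to the pool. The 24 females and 23 males formed 8 groups by sex, genotype and diet, with 5 mice in the WT males fed BC and 6 in each other group. The BC diet held 150 mg BC/kg and was fed for 14 weeks from an age of 5 weeks to 19 weeks. Both diets held 1500 IU vitamin A/kg with 10% of the energy as fat, and all mice had received breeder chow with 14000 IU vitamin A/kg before. The null mice were of the line C57/BL6;129Svj-Bcmo1 tm1Dnp and the WT controls were F1 mice on a mixed C57/BL6;129Svj background, so that genotype and genetic background cannot be told apart.

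Collagens are proteins of 3 chains wound into a triple helix. The fibrillar types form the tension-bearing fibrils of connective tissue, type IV forms the sheet-like network of basement membranes, and the remaining types link, coat or anchor these structures or sit in the cell membrane. In fat every adipocyte is wrapped in a basement membrane, and the surrounding stroma, vessels and, in this depot of the female, the ducts of the mammary gland add collagens of their own. In a whole-tissue sample, fewer cells of one type and less RNA per cell cannot be told apart.

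The 47 arrays lay on 12 slides, of which 4 held both sexes, and the median Cy5 signal of an array lay between 130 and 277. The labels name separate mice, without stating which mice shared a litter or cage. The paper reports that several mice were housed per cage. Every test below took each mouse as independent, so that a shared cage or litter could not be accounted for. The single Bcmo1 probe did not separate the genotypes: it was well above background on 8 of 23 WT and 7 of 24 null arrays, with median Cy5 signals of 87 and 86. All 9 adipocyte markers on the array, which include the adipose hormone genes Adipoq and Lep, were well above background in both sexes. Of the 40 collagen genes, 30 passed the filter on dim probes in females (10 fibrillar, 5 basement membrane, 15 other), 28 in males (9, 5 and 14) and 29 over all arrays (9, 5 and 15). The 10 genes too dim in all of these fits were Col4a3, the cartilage genes Col9a1, Col10a1 and Col11a2, and Col8a2, Col19a1, Col20a1, Col22a1, Col25a1 and Col28a1. No collagen spot was saturated.

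The promoters of Col4a1, Col4a2 and Col18a1, which were called between the genotypes in males on the control diet, are shown first. Each is given as 300 bases from the RefSeq table on build GRCm38.p6. Col4a1 and Col4a2 encode the 2 chains of the common type IV collagen and are transcribed away from each other, with starts 21 bases apart and windows that overlap by 78 bases. Col18a1, which encodes the collagen whose C-terminal fragment is endostatin, has 2 starts 52825 bases apart in the table. The capitals mark the GC box GGGCGG and the CCAAT box on either strand. These and the TATA box TATAAA were searched.
Col4a1, chr8:11312777-11313076, minus strand: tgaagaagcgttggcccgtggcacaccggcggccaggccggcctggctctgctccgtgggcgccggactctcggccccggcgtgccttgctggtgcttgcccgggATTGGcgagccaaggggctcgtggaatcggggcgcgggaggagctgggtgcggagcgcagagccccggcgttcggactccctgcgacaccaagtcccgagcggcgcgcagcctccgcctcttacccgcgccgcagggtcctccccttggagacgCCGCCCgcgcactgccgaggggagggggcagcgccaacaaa
Col4a2, chr8:11312555-11312854, plus strand: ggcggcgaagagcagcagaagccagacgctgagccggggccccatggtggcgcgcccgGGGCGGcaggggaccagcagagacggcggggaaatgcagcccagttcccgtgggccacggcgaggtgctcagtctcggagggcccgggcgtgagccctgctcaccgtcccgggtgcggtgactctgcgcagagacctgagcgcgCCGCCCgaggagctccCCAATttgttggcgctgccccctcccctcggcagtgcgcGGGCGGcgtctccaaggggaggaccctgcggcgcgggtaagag
Col18a1 upstream start, chr10:77166481-77166780, minus strand: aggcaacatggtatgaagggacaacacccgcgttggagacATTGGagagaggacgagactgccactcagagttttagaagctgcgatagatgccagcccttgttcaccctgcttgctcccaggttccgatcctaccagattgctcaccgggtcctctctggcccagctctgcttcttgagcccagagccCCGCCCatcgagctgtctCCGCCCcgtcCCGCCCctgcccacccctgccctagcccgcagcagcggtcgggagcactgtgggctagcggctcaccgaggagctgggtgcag
Col18a1 downstream start, chr10:77113656-77113955, minus strand: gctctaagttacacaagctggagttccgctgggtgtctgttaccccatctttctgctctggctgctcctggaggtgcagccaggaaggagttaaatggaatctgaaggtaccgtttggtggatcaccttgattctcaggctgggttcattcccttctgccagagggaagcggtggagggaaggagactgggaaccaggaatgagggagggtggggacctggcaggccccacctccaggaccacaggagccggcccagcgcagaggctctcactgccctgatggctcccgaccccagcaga

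The Col4a1 window held 1 GC box and 1 CCAAT box, and the Col4a2 window 3 GC boxes and 1 CCAAT box. The GC contents of these windows were 74% and 73.7%. The GC box of Col4a1 lies in the overlap and is the last GC box of Col4a2, read from the other strand. The upstream Col18a1 window held 3 GC boxes and 1 CCAAT box, whereas the downstream window held neither, and a TATA box was found in none of the 4 windows. Over all 38 promoters in the table of genes with a collagen symbol (35 genes, of which 32 were among the 40 on the array), a GC box was present in 60.5%, a CCAAT box in 34.2% and a TATA box in 13.2%, compared with 35.7%, 37.4% and 13.6% of all 32851 promoters. A match describes the letters of a window only. On the arrays, the Col4a1 probe lies at chr8:11198981-11199040 and the Col4a2 probe at chr8:11448812-11448871 of build mm8, and the brightest Col18a1 probe at chr10:76496791-76496850, so that the probes do not tell the 2 Col18a1 starts apart.

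Differences between the genotypes were called mainly in males. In males on the control diet, 8 of 28 collagen genes were lower and 1 was higher in Bcmo1-null than in WT mice (limma, adjusted p under 0.05), where 13.0% of all 14322 genes tested were lower and 18.6% higher. On the BC diet, 4 of 28 were lower and none was higher, beside 13.4% and 17.0% of all genes. The median collagen difference, null minus WT, was -0.31 on the control diet and -0.09 on the BC diet, with 0.01 and -0.00 over all genes. By class, on the control diet 2 of 9 fibrillar genes were lower and 1 higher, 3 of 5 basement membrane genes were lower and 3 of 14 others were lower, and on the BC diet these counts were 1 of 9, 0 of 5 and 3 of 14, all lower. With median centring in place of loess, which moved the median of all genes to 0.15 on the control diet, 2 collagens were called on each diet, Col18a1 and Col24a1. On the control diet 58.8% of all called genes were higher, and 87.6% with median centring, 48.9% with the deposited ratio and 45.6% without normalization within arrays. The share was 55.9% on the BC diet, and 76.9% with median centring.

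**Figure D1:**
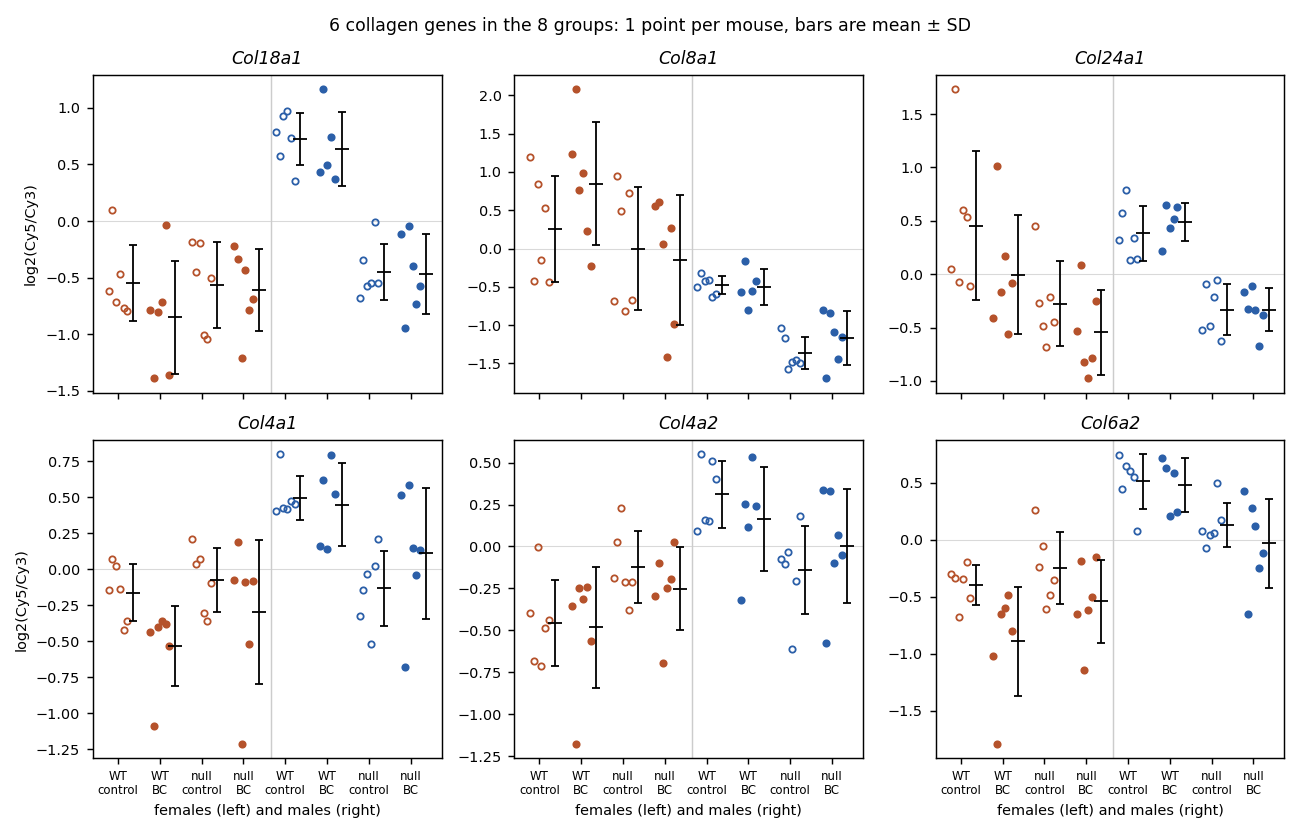
Log2(Cy5/Cy3) of 6 collagen genes (vertical axis) in the 8 groups (horizontal axis), 1 point per mouse, with mean ± SD beside the points. Females are in red and males in blue, and open points are the control diet. Col18a1 separates WT from null males with no overlap on either diet, whereas the 4 female groups overlap.

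Col18a1 had the largest genotype difference among the collagens of the males on either diet. In WT males on the control diet its log2 ratio ranged from 0.35 to 0.98 with a median of 0.76, and in WT males on the BC diet the 5 values were 0.37, 0.43, 0.49, 0.74 and 1.17. In null males it ranged from -0.68 to -0.00 with a median of -0.55 on the control diet, and from -0.94 to -0.04 with a median of -0.48 on the BC diet. Every null male was below every WT male. The difference was -1.18 (SE 0.16, adjusted p = 3.5e-05, 2.26-fold lower) on the control diet and -1.11 (SE 0.17, adjusted p = 0.00012, 2.16-fold lower) on the BC diet. Within the slides that held both genotypes it ran from -1.52 to -0.74 in 4 of 4 slides on the control diet and from -1.48 to -0.89 in 5 of 5 on the BC diet. The second Col18a1 probe gave -0.96 (adjusted p = 0.00015) and -0.69 (adjusted p = 0.0031).

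Col8a1, a short-chain network collagen of vessel walls and subendothelial matrix, was also lower in null males. WT males on the control diet ranged from -0.63 to -0.32 (median -0.46) and null males from -1.57 to -1.04 (median -1.47), without overlap. On the BC diet the 5 WT values were -0.80, -0.57, -0.55, -0.43 and -0.17, while the null males ranged from -1.70 to -0.80 (median -1.12), so that the groups met at their edges. The difference was -0.89 (SE 0.13, adjusted p = 0.00011, 1.85-fold lower) and -0.67 (SE 0.14, adjusted p = 0.0018, 1.59-fold lower). The slides gave -1.06 to -0.82 and -1.13 to -0.30, all of the same sign.

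Col24a1, a minor fibrillar collagen, was lower in the null males on both diets as well. It ranged from 0.13 to 0.79 (median 0.33) in WT males on the control diet and from -0.62 to -0.06 (median -0.35) in null males. On the BC diet the 5 WT values were 0.22, 0.43, 0.52, 0.63 and 0.65, and the null males lay between -0.67 and -0.11 (median -0.33). The groups did not overlap on either diet. The difference was -0.72 (SE 0.12, adjusted p = 0.00037) and -0.82 (SE 0.13, adjusted p = 0.0002), and the sign was the same in 4 of 4 and 5 of 5 slides.

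The type IV genes Col4a1 and Col4a2 were lower in null males on the control diet only by the test, and the difference between the diets itself did not pass (0 of 28 collagens and 0% of all genes in the interaction of genotype and diet). Col4a1 ranged from 0.41 to 0.80 (median 0.44) in WT males and from -0.52 to 0.21 (median -0.09) in null males on the control diet, without overlap, and the difference was -0.63 (SE 0.17, adjusted p = 0.008). The second Col4a1 probe gave -0.39 and was not called (limma, adjusted p = 0.15). Col4a2 ranged from 0.09 to 0.55 (median 0.28) against -0.61 to 0.18 (median -0.09), with some overlap, and the difference was -0.45 (SE 0.16, adjusted p = 0.032). The second Col4a2 probe gave -0.49 (limma, adjusted p = 0.037). On BC, the WT values of Col4a1 were 0.14, 0.16, 0.52, 0.62 and 0.79, and the null males ranged from -0.68 to 0.58. Those of Col4a2 were -0.32, 0.11, 0.24, 0.25 and 0.53, and the null males ranged from -0.58 to 0.34, so that the genotypes overlapped in both genes.

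Further genes that passed in control males were Col5a1 (-0.43, SE 0.14, adjusted p = 0.029), a chain of the type V fibrils that nucleate collagen fibrils, and Col12a1 (-0.42, SE 0.13, adjusted p = 0.022), a fibril-associated collagen. Col4a4, a chain of the type IV network best known from the kidney, was lower by a small amount (-0.23, SE 0.08, adjusted p = 0.028). It ranged there from 0.02 to 0.29 in WT and from -0.18 to 0.05 in null males. On the BC diet Col4a4 was not called and most null males lay above every WT male. The WT range was -0.02 to 0.085 and the null values were -0.13, -0.07, 0.17, 0.18, 0.29 and 0.39. Col27a1, a fibrillar collagen of cartilage, was higher on the control diet (0.27, SE 0.08, adjusted p = 0.016). Within slides Col5a1 ran from -0.62 to 0.03, with the sign of the pooled value in 3 of 4 slides. Col6a2, a chain of the type VI beaded filaments, had on the BC diet the WT values 0.21, 0.25, 0.59, 0.63 and 0.72 and a null range of -0.65 to 0.43 with a median of -0.00, so that 2 WT mice lay inside the null range. Its difference was -0.51 (SE 0.16, adjusted p = 0.021), and its call was lost without WT replicate 1 or 2 or null replicate 2 (-0.39 without the last, adjusted p = 0.055). A further kept probe had the same sign in all 6 called genes that had one on the control diet, of which it was called in 4, and in all 3 on the BC diet, of which it was called in 2.

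**Figure D2:**
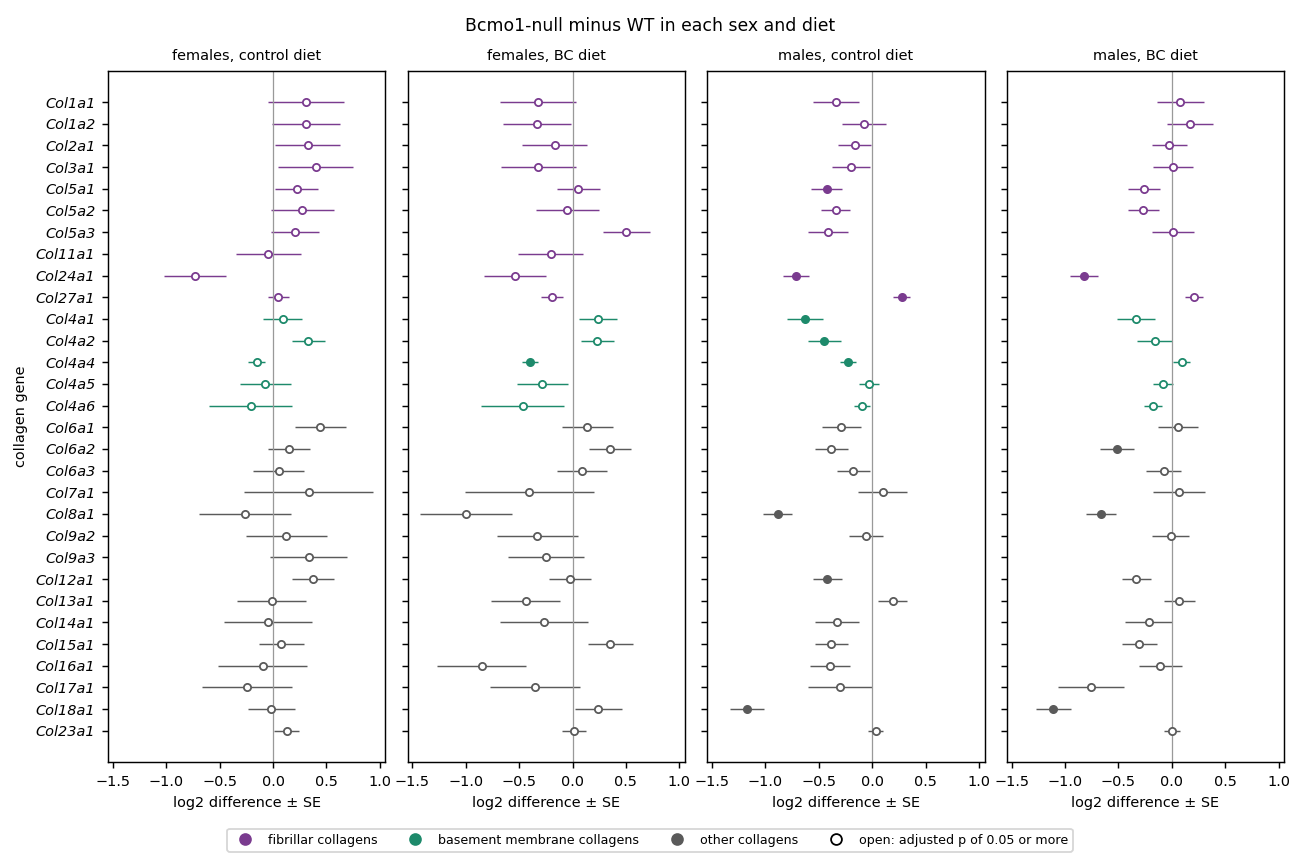
Log2 difference, Bcmo1-null minus WT, ± SE (horizontal axis) for each collagen gene that passed the filter (vertical axis, ordered by class), in 4 panels by sex and diet. Filled points passed adjusted p under 0.05 and open points did not. Filled points lie mainly in the males on the control diet (8 below 0 and 1 above), 4 in the males on the BC diet and 1, Col4a4, in the females on the BC diet. Col4a6 in males is the brighter of its probes in that sex, which is not the one used in females.

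The genes that make, bind or degrade collagens were taken from 6 lists. In control males, 5 of 10 basement membrane partners on the array were lower and none was higher, where 13.0% of all genes were lower and 18.6% higher. They included Nid1, the linker of laminin and type IV networks (-0.82, SE 0.19, adjusted p = 0.0034), the laminin chains Lama5 (-0.55), Lama2 (-0.53) and Lamb2 (-0.35), and Pxdn (-0.51), the peroxidase that crosslinks type IV collagen. With BC, 3 of 10 were lower, namely Nid1 (-0.90), Lama2 (-0.58) and Pxdn (-0.39), beside 13.4% lower and 17.0% higher over all genes. Of 15 fibril-associated matrix genes, 3 were lower on the control diet, namely the proteoglycan Prelp (-1.29), the matricellular Thbs1 (-0.84) and elastin, Eln (-0.29), a count near the share over all genes. Prelp was lower (-0.93) and Postn higher (0.29) on the BC diet.

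The remaining lists stand beside all genes, of which 18.6% were higher and 13.0% lower on the control diet. On the BC diet these shares were 17.0% and 13.4%. Among 8 processing and crosslinking genes tested, the procollagen N-proteinase Adamts2 was lower on both diets (-0.61 and -0.67) and Loxl2 on the control diet (-0.44). Of 16 genes for chain modification and folding, the prolyl hydroxylase subunit P4ha2 was lower (-0.42 and -0.57) and P4ha1 was higher on the control diet (0.43). Of 13 degradation genes, 2 were higher and 3 lower on the control diet and 3 higher and 1 lower on the BC diet, counts near the shares over all genes. The metalloproteinases Mmp3 (0.75 and 0.67) and Mmp9 (0.60 and 0.51) were higher on both diets and the inhibitor Timp4 lower (-0.76 and -0.84), while Mmp11 (-0.59) and the inhibitor Timp3 (-0.26) were lower on the control diet and Mmp2 (0.57) was higher on the BC diet. Among 12 receptors and TGF-beta genes, the collagen receptor kinase Ddr1 was lower (-0.84 and -0.77), as was Ctgf (-1.02 and -0.99), whereas Lair1, an inhibitory collagen receptor of leukocytes, was higher (0.97 and 1.01), as was Tgfbr2 (0.57 and 0.67).

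Marker genes of several cell types, adipocytes among them, moved with the genotype in males. The summed Cy5 signal of 10 lymph node lymphocyte markers, such as Cd3e and Cd79a, was 3607 to 52640 in WT males and 56250 to 127300 in null males on the control diet. It was 3358 to 15050 in WT males and 3663 to 84660 in null males on the BC diet. All 10 markers were well above background in the null males, and 9 and 8 in the WT males on the control and BC diet. The 7 mural cell markers summed to 31170 to 41090 in WT and 20720 to 27410 in null males on the control diet, and the 5 brown adipocyte markers to 73180 to 107000 and 90240 to 233000. On the BC diet the mural sums were 27550 to 36950 and 20810 to 29610. The brown adipocyte sums there were 74820 to 182000 and 88300 to 260500. The 9 adipocyte markers had a median log2 ratio of 0.65 in WT and 0.14 in null males on the control diet. On the BC diet it was 0.59 and 0.18.

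When the lymph node marker level entered the fit as a covariate, an alternative chosen after the levels had been seen, 2 collagens remained lower in null males on the control diet: Col18a1 (-0.93, SE 0.19, adjusted p = 0.0094) and Col8a1 (-0.63, adjusted p = 0.028), beside 3.49% of all genes called. On the BC diet 1 collagen was called with the covariate, Col18a1 (-0.82, SE 0.21, adjusted p = 0.046), beside 2.09% of all genes. That call lay at the threshold and depended on the makeup of the marker list: with each of the 10 markers left out of the covariate in turn, it was kept in 8 fits and lost without Cd3g or Ltb (limma, adjusted p = 0.039 to 0.0535). On the control diet Col18a1 and Col8a1 were called in 10 of 10 such fits. There the marker sums of the genotypes did not overlap (3607 to 52640 in WT and 56250 to 127300 in null males). Genotype and lymph node content thus cannot be told apart on that diet, and leaving out single markers does not separate them. On the BC diet the sums (3358 to 15050 in WT and 3663 to 84660 in null males) met only through 1 null male. The covariate can hardly separate genotype from lymph node content there either. The 1 null male on the BC diet with a marker sum of 3663, in the range of WT males, had a Col18a1 value of -0.12, below every WT male and the second highest of its group, and a Col4a1 value of 0.51. The WT male on the control diet with a marker sum of 52640 had a Col18a1 value of 0.35, above every null male and the lowest of all WT males. These are single mice, 1 of each genotype. The part of lymph node, adipocyte, mural and brown adipocyte cells in these differences was not tested.

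In females, genotype comparisons called few collagens. On the control diet 0 of 30 collagen genes passed the adjusted threshold in limma, beside 1.92% of all 14546 genes tested. At an unadjusted p under 0.05, 2 collagens passed in limma, beside 10.8% of all genes, and 4 in the methods' t-test, beside 10.7% of all genes, of which none passed after adjustment. Of all called genes 46.2% were higher in null females, and 18.0% with median centring and 12.2% without normalization within arrays. On the BC diet 1 of 30, Col4a4, was lower, beside 1.84% of all genes. There 65.6% of all called genes were higher, and 80.5% with median centring and 44.3% without normalization within arrays. The values of Col4a4 ranged from 0.16 to 0.44 (median 0.26) in WT females and from -0.19 to -0.06 (median -0.10) in null females, without overlap, and the difference was -0.40 (SE 0.08, adjusted p = 0.0027). The second Col4a4 probe gave 0.36 (adjusted p = 0.20) with the opposite sign, and the mean of both probes was -0.02.

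The genotype difference of Col18a1 was also compared between the sexes, and the call depended on the processing. In females its group means were -0.55 ± 0.34 (SD, n = 6) in WT and -0.56 ± 0.38 in null mice on the control diet, and -0.85 ± 0.50 and -0.61 ± 0.36 on the BC diet, and the 4 groups overlapped. The difference between the genotype differences of males and females on the control diet was -1.16 (SE 0.28, adjusted p = 0.03), and it was called in no other of the 29 collagens, beside 1.59% of all genes. Of all genes called in this interaction 58.7% were positive, and 92.7% with median centring, 95.7% without normalization within arrays and 44.8% with the deposited ratio. Col4a2 (-0.78, adjusted p = 0.057), Col12a1 (-0.80, adjusted p = 0.075) and Col4a1 (-0.72, adjusted p = 0.10) did not pass. The call for Col18a1 was kept in 40 of 47 fits without 1 array and lost without WT female control replicate 6, null female control replicate 1, 2 or 3, WT male control replicate 3, or null male control replicate 1 or 3 (-1.14 to -1.08, adjusted p = 0.053 to 0.06). It was also lost with the slide as a block (-1.08, adjusted p = 0.072), with median centring (-0.89, adjusted p = 0.20), without normalization within arrays (-1.09, adjusted p = 0.306), with the Cy5 channel alone (-1.09, adjusted p = 0.0537), with no filter (adjusted p = 0.051) and with the lymph node covariate (-0.71, adjusted p = 0.25).

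Dietary BC called no collagen gene in any genotype or sex. The counts were 0 of 30 in WT and in null females and 0 of 28 in WT and in null males, beside 1.01% of all genes in WT females and 0% in the other groups. At an unadjusted p under 0.01 in limma, 1 collagen passed in WT females (Col4a4, 0.25, SE 0.08, adjusted p = 0.075), beside 9.14% of all genes, and none passed in null females, WT males or null males, beside 0.399%, 0.112% and 0.475%. At an unadjusted p under 0.05 limma passed 3 collagens in WT females, 0 in null females, 0 in WT males and 1 in null males, beside 23.4%, 2.74%, 1.93% and 3.67% of all genes. The methods' t-test passed 4, 0, 0 and 1 at that threshold, beside 20.3%, 2.61%, 1.76% and 3.71% of all genes, and 0 after adjustment.

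The interaction of genotype and diet called 0 of 30 collagens in females and 0 of 28 in males, beside 0% of all genes, and 1 in each sex had an unadjusted p under 0.05, beside 9.61% and 1.38%. In males that gene was Col4a4, whose values are given above. It also had an unadjusted p under 0.01 (limma), beside 0.112% of all genes. Whether the diet difference of WT mice depended on sex was tested as well, and 0 of 29 collagens were called, beside 1.09% of all genes, and 2 had an unadjusted p under 0.05, beside 23.9%. Of these, 1, again Col4a4, had an unadjusted p under 0.01 (limma), beside 9.23% of all genes.

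In WT females the collagen values were nevertheless spread widely. With the BC diet, 20 of 30 collagen differences were positive and 10 negative, with a median of 0.24 over the collagens and -0.00 over all genes. All 5 fibril-associated collagens with interrupted helices that were tested were positive, with a median of 0.62, up to 0.93 (SE 0.42) in Col16a1. The anchoring fibril gene Col7a1 was at 1.06 (SE 0.60), whereas Col6a2 (-0.50, SE 0.19), Col15a1 (-0.39, SE 0.21) and Col4a1 (-0.37, SE 0.18) were negative. None of these passed the adjusted threshold. Marker genes of several tissues moved beside them, with positive differences in 10 of 10 mammary epithelium (median 0.39), 9 of 9 lymph node (0.79), 9 of 9 skeletal muscle (0.90) and 5 of 5 brown adipocyte markers (0.63) tested, and negative ones in 8 of 9 adipocyte markers (-0.52), of which 1 passed the test. Their summed Cy5 signals in control and BC mice were 123300 to 180800 and 144400 to 295900 for mammary epithelium, 3442 to 58950 and 6214 to 79670 for lymph node, 26020 to 69140 and 35170 to 247600 for skeletal muscle, 171900 to 314000 and 192200 to 415400 for brown adipocytes, and 851500 to 1492000 and 797100 to 1247000 for adipocytes. The part of these tissues in the collagen values was not tested. The collagen medians were -0.11 in null females, -0.04 in WT males, where median centring gave 0.12 with 0.13 over all genes, and 0.07 in null males, where no normalization gave -0.03 with -0.12 over all genes. In WT females replicate 2 on the BC diet had the lowest value of its group in 6 collagens that stood apart from the other 5 mice, among them Col4a1 (-1.09) and Col6a1 (-1.78), and without it no collagen was called either.

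The major fibrillar chains showed the same width. Col1a1, a chain of type I collagen, was -0.45 ± 0.41 (SD, n = 6) in WT females on the control diet and 0.05 ± 0.87 on the BC diet, and -0.14 ± 0.52 and -0.27 ± 0.71 in null females. In males it was 0.04 ± 0.12 and -0.16 ± 0.46 (n = 5) in WT, and -0.30 ± 0.25 and -0.08 ± 0.57 in null mice. Col3a1, the chain of type III collagen, was -0.08 ± 0.45 and 0.35 ± 0.76 in WT females and 0.32 ± 0.50 and 0.03 ± 0.81 in null females. It was 0.10 ± 0.13, 0.04 ± 0.28, -0.10 ± 0.26 and 0.05 ± 0.50 in the male groups, in the order WT control, WT BC, null control and null BC. The ranges of these groups overlapped in every pair of diets.

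The remaining chains that were followed in every group are given in the order WT control, WT BC, null control and null BC. Col1a2 had means of -0.25, 0.27, 0.05 and -0.06 in females (SD 0.42 to 0.76) and 0.27, 0.08, 0.19 and 0.25 in males (SD 0.19 to 0.61). Col5a1 had means of -0.31, -0.37, -0.09 and -0.32 in females (SD 0.12 to 0.48) and 0.39, 0.26, -0.04 and -0.00 in males (SD 0.12 to 0.40). Col5a2, its partner chain, had means of -0.18, 0.01, 0.10 and -0.04 in females (SD 0.24 to 0.85) and 0.09, 0.09, -0.25 and -0.18 in males (SD 0.15 to 0.35). In each of these genes the SD of a BC group was the widest of its sex.

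Col6a1 had means of -0.48, -0.36, -0.03 and -0.22 in females (SD 0.19 to 0.72) and 0.22, 0.02, -0.07 and 0.08 in males (SD 0.15 to 0.47). Col6a3 had means of -0.22, -0.50, -0.17 and -0.41 in females (SD 0.31 to 0.55) and -0.02, -0.02, -0.19 and -0.10 in males (SD 0.17 to 0.42). Col15a1 had means of -0.18, -0.57, -0.10 and -0.22 in females (SD 0.29 to 0.47) and 0.33, 0.31, -0.06 and 0.01 in males (SD 0.18 to 0.40). Between the diets these groups overlapped in each genotype and sex.

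Exact permutation tests over mice were run for Col1a1, Col1a2, Col3a1, Col4a1, Col4a2, Col6a1, Col6a2 and Col6a3 in the 4 diet comparisons, 32 tests in all. The smallest p was 0.01515 (two-sided exact permutation test, 924 splits), for Col4a1 and for Col6a2 in WT females, and after adjustment over the 32 tests it was 0.2424. Col4a1 was -0.53 on average on the BC diet and -0.16 on the control diet, and Col6a2 was -0.89 and -0.39. In both genes 3 of the 6 BC mice were below every control mouse and the ranges overlapped.

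Most collagens tested were called between the sexes. Averaged over genotype and diet, 11 of 29 collagen genes were higher and 10 were lower in females than in males (limma, adjusted p under 0.05), beside 28.4% and 24.8% of all 14503 genes. All 4 called fibril-associated genes and the anchoring fibril gene were higher in females, and all 3 called type VI chains and both multiplexins were lower. The 9 fibrillar genes were 1 higher, 2 lower and 6 not called, and the 5 basement membrane genes 2 higher, 2 lower and 1 not called. The median collagen difference was -0.05 and that of all genes 0.02, and without normalization within arrays the collagen median turned to 0.03. Of all called genes 53.4% were higher in females, and 66.0% without normalization within arrays.

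**Figure D3:**
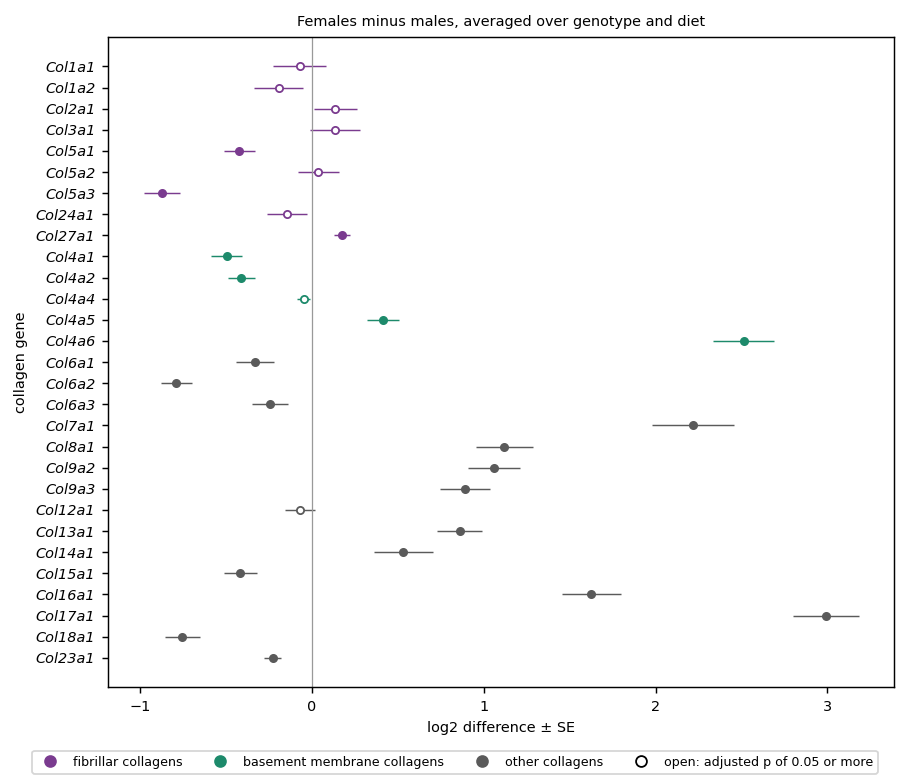
Log2 difference, females minus males, ± SE (horizontal axis) for the 29 collagen genes that passed the filter over all arrays (vertical axis, ordered by class). Filled points passed adjusted p under 0.05. Col17a1, Col4a6 and Col7a1 stand at 2.99, 2.51 and 2.22 on the right, and Col5a3 at -0.87 is the lowest.

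The largest sex difference was that of Col17a1, the transmembrane collagen of hemidesmosomes in stratified and glandular epithelium. It ranged from -1.22 to 2.06 (median 0.69) in the 24 females and from -3.09 to -0.77 (median -2.47) in the 23 males, and the difference was 2.99 (SE 0.19, adjusted p = 6.7e-17, 7.96-fold higher). Only the lowest females and the highest males overlapped. Within the 4 slides that held both sexes the difference was 2.48 to 3.96.

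Col4a6, a chain of the type IV network of epithelial and smooth muscle basement membranes, ranged from -0.97 to 1.84 (median 0.49) in females and from -2.65 to -0.74 (median -2.03) in males. The difference was 2.51 (SE 0.18, adjusted p = 1.8e-15), but its other kept probe gave -0.05 (adjusted p = 0.30). Col7a1, the anchoring fibril collagen beneath epithelia, ranged from -1.22 to 2.48 (median 0.14) against -2.71 to -1.21 (median -2.05), with a difference of 2.22 (SE 0.24, adjusted p = 2.6e-10) and overlap at the edges only. Col16a1 ranged from -1.19 to 1.89 (median 0.18) against -2.35 to -0.85 (median -1.46), with a difference of 1.63 (SE 0.17, adjusted p = 1.1e-10).

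The other genes higher in females were Col8a1 (1.12, SE 0.17), the cartilage-type chains Col9a2 (1.06, SE 0.15) and Col9a3 (0.89, SE 0.15), the transmembrane Col13a1 (0.86, SE 0.13), the fibril-associated Col14a1 (0.53, SE 0.17), Col4a5 (0.41, SE 0.09) and Col27a1 (0.18, SE 0.05). Col9a3 was well above background on 22 of 24 female and 5 of 23 male arrays, so that its male level was poorly measured. Within the 4 mixed slides Col8a1 ran from -0.18 to 1.99, Col14a1 from -1.35 to 1.06, Col4a5 from -0.09 to 0.76 and Col27a1 from -0.17 to 0.67, with the sign of the pooled value in 3 of 4 slides each. With the slide as a block, Col4a5, Col9a3, Col13a1 and Col14a1 did not pass.

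The genes lower in females were led by Col5a3, a type V chain (-0.87, SE 0.11, adjusted p = 5.8e-09), which ranged from -1.64 to 0.30 (median -0.57) in females and from -0.49 to 1.02 (median 0.39) in males. Col6a2 ranged from -1.79 to 0.27 (median -0.49) against -0.65 to 0.75 (median 0.25), with a difference of -0.79 (SE 0.09, adjusted p = 1.2e-09). The other type VI chains differed less, Col6a1 by -0.33 (SE 0.11) and Col6a3 by -0.24 (SE 0.10, adjusted p = 0.047, called in 18 of 47 fits without 1 array). Col18a1 (-0.75, SE 0.10) and its multiplexin relative Col15a1 (-0.42, SE 0.10) were lower, as were Col4a1 (-0.50, SE 0.09), Col4a2 (-0.41, SE 0.08), Col5a1 (-0.42, SE 0.09) and the transmembrane Col23a1 (-0.23, SE 0.05). Group means of Col18a1 on the control and BC diet were -0.55 and -0.85 in WT females and 0.73 and 0.64 in WT males. In null mice they were -0.56 and -0.61 in females and -0.45 and -0.47 in males, so that the difference lay mainly in WT mice. The sex difference within each genotype was not tested. Among the genes lower in females, Col6a3 (-0.42, limma, adjusted p = 0.161) and Col23a1 (-0.29, limma, adjusted p = 0.0501) did not pass when the slide was a block.

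The type I and III chains Col1a1, Col1a2 and Col3a1 were not called between the sexes, nor were Col2a1, Col5a2, Col12a1, Col24a1 and Col4a4. Of the 9 called genes with another kept probe, 8 had the same sign there and 7 were called. The spread within groups was wider in females, with a median SD over the measured collagens of 0.42 against 0.27 in males.

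**Figure D4:**
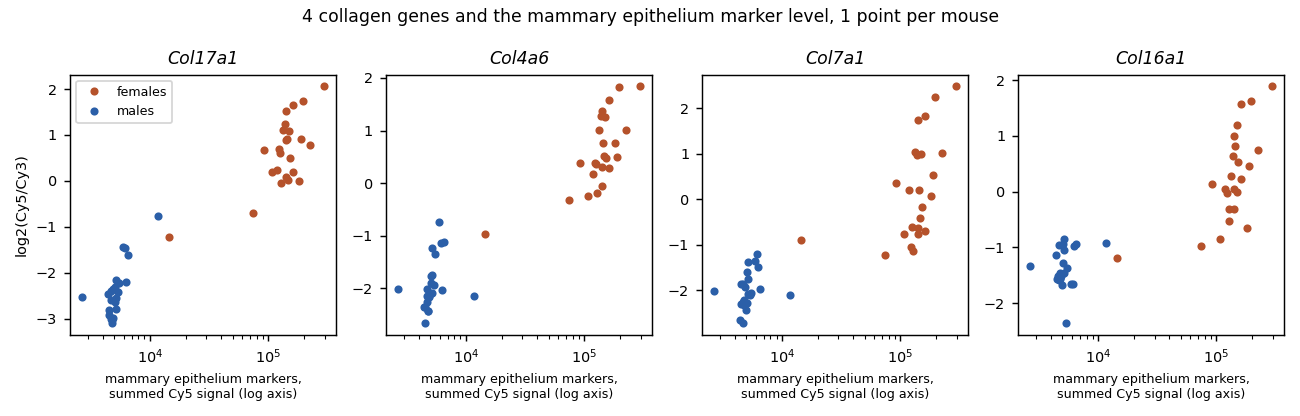
Log2(Cy5/Cy3) of Col17a1, Col4a6, Col7a1 and Col16a1 (vertical axis) against the summed Cy5 signal of 10 mammary epithelium markers (horizontal log axis), 1 point per mouse, females in red and males in blue. The marker sums of the sexes do not overlap, and the female with the lowest sum, 14590, has low values of all 4 genes. That female also has a skeletal muscle marker sum of 864000, where the female median is 48500.

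Mammary epithelium markers moved with sex beside these genes. The summed Cy5 signal of the 10 markers on the array, among them the keratins Krt8, Krt18, Krt5 and Krt14, was 14590 to 295900 (median 140900) in females and 2667 to 11690 (median 5067) in males, without overlap, and all 10 were well above background in both sexes. The null female on the control diet with the sum of 14590 had values of -1.22 in Col17a1, -0.97 in Col4a6, -0.90 in Col7a1 and -1.19 in Col16a1, which was the lowest of all females in 3 of the 4 genes. This single mouse differed in other tissues too. Its skeletal muscle marker sum was 864000 (26020 to 944300 in females, median 48500). Its lymph node marker sum was 4595 (3442 to 79670, median 46690). The skin epidermis markers summed to 1377 to 28750 in females and 1739 to 8233 in males. Medians of other marker sums were higher in males for endothelium (26960 against 20340 in females), adipocytes (1342000 against 1164000) and skeletal muscle (239000 against 48500). They were higher in females for stromal fibroblasts (115000 against 96050 in males), mural cells (34660 against 28220) and brown adipocytes (182000 against 123500). The ranges of the sexes overlapped in all of these. The part of any of these cells in the sex differences was not tested.

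Collagen partners were called between the sexes in both directions, as were 28.4% (higher) and 24.8% (lower) of all genes. Of 15 fibril-associated matrix genes, 5 were higher in females, led by Postn, the periostin that binds type I collagen (2.71, SE 0.19, adjusted p = 7.1e-16), and the proteoglycan Lum (1.48, SE 0.15), and 5 were lower, led by Prelp (-1.75, SE 0.15) and Sparc (-1.11, SE 0.13). Of 16 chain modification genes, 5 were higher, led by the lysyl hydroxylase Plod2 (1.22, SE 0.15), and 5 lower, led by P4ha2 (-0.43, SE 0.11). The crosslinking enzyme Lox (-0.83, SE 0.09), Pcolce (-0.59) and Adamts2 (-0.56) were lower among 9 processing genes, and Tgm2 was higher (0.48).

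Of 10 basement membrane partners, 3 were higher, with Agrn at 0.92 and Lama5 at 0.61, and 6 were lower, with Nid1 at -0.66 and Nid2 at -0.57. Among 13 degradation genes, Mmp3 (1.12), Timp1 (0.95) and Mmp14 (0.72) were among 5 higher, and Timp4 (-1.82) was the 1 lower. In 12 receptors and TGF-beta genes, 5 were higher, led by Ctgf (1.38), Tgfb3 (0.88) and Tgfb2 (0.82), and none was lower.

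Both chains of type I collagen varied together from mouse to mouse. Deviations of each mouse from its group mean were correlated for 6 gene pairs in each sex, 12 relations in all. Col1a1 correlated with Col1a2, the other chain of type I collagen, with r = 0.952 and rho = 0.94 in 24 females and r = 0.873 and rho = 0.892 in 23 males (permutation p = 1e-05, the smallest that 100000 resamples can give, adjusted p = 1.7e-05 for r). Without the 2 mice farthest on Col1a1, r was 0.93 and 0.807, and with slide means removed 0.964 and 0.821. Col1a1 and Col3a1, whose molecules share fibrils, gave r = 0.952 and rho = 0.929 in females and r = 0.835 and rho = 0.829 in males (permutation, adjusted p = 1.7e-05 for r), 0.931 and 0.849 without the 2 farthest mice, and 0.975 and 0.837 within slides.

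**Figure D5:**
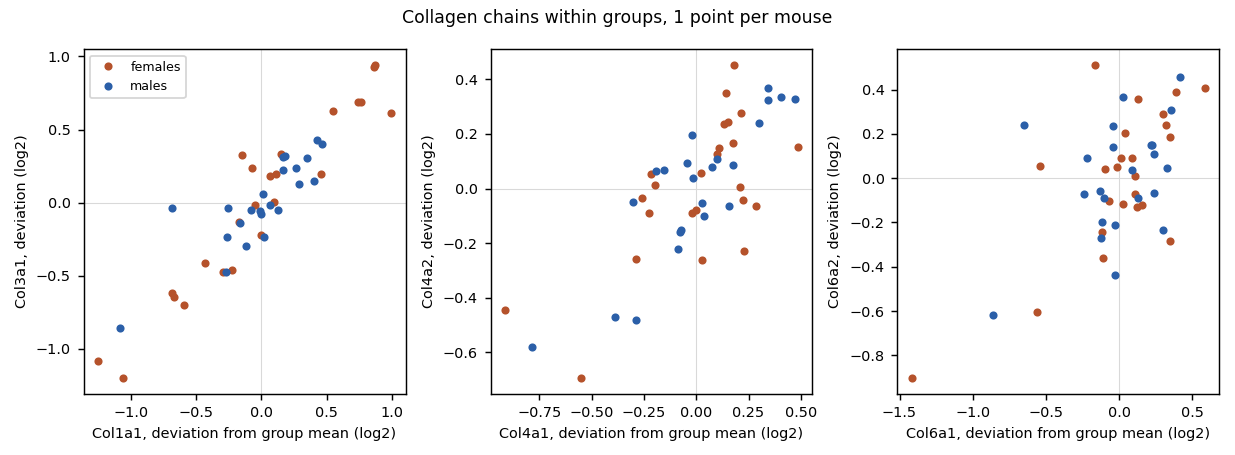
Deviation of each mouse from its group mean (log2) for Col3a1 against Col1a1, Col4a2 against Col4a1 and Col6a2 against Col6a1, 1 point per mouse, females in red and males in blue. Points follow a rising line in the Col1a1 and Col3a1 panel (r = 0.952 in females) and scatter more in the Col6a1 and Col6a2 panel (r = 0.443 in males).

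Col4a1 and Col4a2, whose shared start region is printed above, gave r = 0.669 and rho = 0.503 in females (permutation, adjusted p = 0.00067 for r and 0.017 for rho). In males r was 0.859 and rho 0.788 (permutation, adjusted p = 1.7e-05 and 4e-05). Without the 2 farthest mice r was 0.397 in females and 0.797 in males, and within slides 0.755 and 0.838. With median centring the female r was 0.748, and 0.615 without the 2 farthest mice. Col1a1 and Col4a1, chains of different molecules, gave r = 0.721 and rho = 0.653 in females (permutation, adjusted p = 8e-05 and 0.0012) and r = 0.863 and rho = 0.865 in males (permutation, adjusted p = 1.7e-05 and 3e-05). Without the 2 farthest mice r was 0.563 and 0.778, and within slides 0.732 and 0.906. The difference between the correlations of these pairs was not tested.

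Col5a1 and Col5a2 gave r = 0.797 and rho = 0.702 in females (permutation, adjusted p = 1.7e-05 and 0.00038) and r = 0.748 and rho = 0.706 in males (permutation, adjusted p = 4.5e-05 and 0.00036). Without the 2 farthest mice r was 0.599 and 0.612, and within slides 0.849 and 0.746. Col6a1 and Col6a2 had r = 0.701 and rho = 0.448 in females (permutation, adjusted p = 0.00067 and 0.033), where r was 0.305 without the 2 farthest mice. With median centring it was 0.802, and 0.705 without those farthest, so that its dependence on 2 mice held under loess and not there. In males r was 0.443 (permutation, adjusted p = 0.035) and rho 0.341 (permutation, adjusted p = 0.11), and with median centring they were 0.779 (permutation, adjusted p = 0.00011) and 0.521 (permutation, adjusted p = 0.012). Within slides r was 0.688 and 0.359. All pairs share the array and its normalization.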

How the data were processed

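Total RNA from the iWAT of 47 mice was measured on 4 x 44 k two-colour arrays, 1 mouse (Cy5) against a Cy3 pool of all samples per array, with no dye swaps. Spots were read by the authors with Agilent Feature Extraction, version 9.5.3.1 per the file headers, whose probe positions are those of build mm8. They deposited for each spot the signal and local background of both dyes as intensity, processed signals as intensity, and the log10 ratio of the processed signals. The deposited series table holds the same log10 ratio.

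Computations used limma 3.58.1 and the data.table package (1.17.8) under R 4.3.3. Median signals were background-corrected with normexp (offset 50), normalized by loess within arrays and given as log2 Cy5 over Cy3. Spots marked faulty (10902) were set aside and spots of a probe averaged. A probe was kept if both mean signals reached 2 times the mean background over the arrays of a fit (20811 probes in females, 20437 in males, 20718 over all), and the brightest kept probe stood for a gene. Group means were fitted with lmFit and eBayes over the 24 female, the 23 male or all 47 arrays, with Benjamini-Hochberg adjustment over all kept probes and a threshold of 0.05. The scripts were tested on simulated data. Replicate numbers were not used to pair the mice. The number of arrays limits the precision.

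Members, classes, partner lists and markers were chosen with earlier results of these data known. All collagens are accounted for. Named with values were 12 major chains, every collagen past the adjusted threshold and up to 4 called genes of each partner list. The 3 largest rises and falls past an unadjusted p of 0.01 in each contrast were named too. Other probes of a gene are described where kept. Of the 40 genes, 34 matched RefSeq by probe accession, and Col4a3bp, which is no collagen, was left out. Alternatives covered normalization within arrays, background correction, the scanner software's processed signals, the deposited ratio, the Cy5 channel alone, filters on dim probes, the methods' t-test, slide or replicate number as a block, the samples in the fit, averaging of probes and leaving out each array. The lymph node covariate and the interaction of sex and genotype were added after seeing the data. 1 item of the lymph node marker list is not reported here, and it was left out of that list after results were known.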

Additional observations from a re-analysis of the deposited data

Results flagged for a closer look

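In 224 sets of 1 gene in 1 group, 28 had 1 mouse that stood apart from the others by Dixon's criterion, or 12.5%, where chance gives about 1 in 20. Genes measured in the same mouse are not independent. The values below are log2 ratios of that mouse.

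In WT females on the BC diet, replicate 2 was low in 6 collagens, with Col6a1 at -1.78, Col5a3 at -1.64, Col5a1 at -1.28, Col15a1 at -1.21, Col4a2 at -1.18 and Col4a1 at -1.09. Replicate 5 of that group was high in Col12a1, at 1.08. In WT females on the control diet, replicate 2 was low in Col14a1 (-1.98) and high in Col15a1 (0.38), Col6a3 (0.37) and Col18a1 (0.10). Replicate 3 of that group was high in Col16a1 (1.20), Col9a2 (1.26) and Col9a3 (0.97).

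Among null females, replicate 3 on the BC diet was low in Col6a3 (-1.46) and Col5a3 (-1.25), and replicate 6 on the control diet was high in Col27a1 (0.37). In WT males on the BC diet, replicate 1 was low in Col14a1 (-1.0) and Col5a3 (-0.19) and high in Col9a2 (-0.24) and Col9a3 (-0.28). In WT males on the control diet, replicate 6, the mouse with the highest lymph node marker sum of its group, was low in Col15a1 (-0.14) and Col6a3 (-0.35). In the same group Col4a1 was high in replicate 2 (0.80) and Col9a2 in replicate 4 (-0.40). Null males on the BC diet had replicate 2 low in Col1a1 (-1.17) and Col5a1 (-0.76) and replicate 6 high in Col23a1 (0.32).

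The genotype difference of Col18a1 on the control diet differed between males and females by -1.16 (limma, adjusted p = 0.03), the interaction described in the report.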

How the results depend on the processing

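The 36 differences of single collagen genes were recomputed under each alternative. Of these 576 values, 504 kept their direction and side of the threshold, 72 kept the direction but no longer passed and 0 reversed, and 16 of the 36 were past the threshold throughout. The number of collagens called between the genotypes in males on the control diet, 9, was 2 with median centring, 4 without normalization within arrays, 15 with the 2 groups alone and 2 with the lymph node covariate, and 6 to 11 without 1 mouse of the compared groups. On the BC diet the number, 4, was 7 with the processed signals and with the deposited ratio, 2 with median centring, 1 with the covariate and 3 to 6 without 1 mouse. In females on the BC diet the 1 call was 0 with median centring, without normalization, with Cy5 alone and with averaged probes, and 2 with no filter, with the flag filter and with all 47 arrays. The diet effect in WT females was 1 with all 47 arrays and 0 to 1 without 1 mouse (Col4a4, without control replicate 3). The interaction of sex and diet was 1 with the slide as a block and 0 to 1 without 1 mouse (Col4a4, without WT female control replicate 3 or BC replicate 6). The interaction of sex and genotype was 2 with the processed signals, the deposited ratio and averaged probes, 0 with median centring, without normalization, with no filter, with the slide block and with the covariate, and 0 to 3 without 1 mouse. The cause of these shifts was not tested.

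Without 1 array, calls in males on the control diet were lost for Col4a2 (WT replicates 2, 5 and 6, null replicates 4 and 5; largest adjusted p = 0.085), Col5a1 (WT 2 and 3, null 1 and 4; 0.067), Col4a4 (WT 3 and 5, null 1, 3 and 6; 0.069) and Col12a1 (WT 5, null 1; 0.059). Same-numbered mice correlated from -0.454 to 0.609 in females and from -0.528 to 0.626 in males, with medians of 0.141 and 0.018 against -0.006 and -0.025 for other pairs, and 10 of 24 females and 3 of 23 males correlated best with a mouse of their own number. Not every pair was above 0.1, so the numbers were not used to pair mice. With the replicate block, 7 collagens were called between male genotypes on the control diet, 4 on the BC diet, 20 between the sexes and 1 in the interaction of sex and diet. The number of arrays and the dim signal of Col9a3 in males limit these values.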
